A study of Homo sapiens with 4 samples.

Results

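The ligands and receptors that steer growing axons were followed after a short hairpin RNA against TTC8 (shTTC8) or a scramble hairpin (shScb). All groups were SK-N-BE(2) cells, a long-established MYCN-amplified line derived from a neuroblastoma, labelled as transfected with the hairpin, and each group held 2 RNA-seq libraries. No genotype beyond control and TTC8-knockdown, and no time after transfection, is given in the sources used here. Whether the 2 libraries of each group were grown as separate cultures is not stated either. The p-values therefore measure the spread between these libraries, which may be technical. Members were the protein-coding genes named as semaphorins, plexins, EPH receptors, ephrins or UNC5 receptors, with neuropilins, SLIT and ROBO proteins, netrins, DCC and NEO1. Of the 64252 gene rows in the table, 72 met this rule. UNC50, a membrane protein that is no netrin receptor, met it only through its letters, and EFNA4-EFNA3 is a readthrough of neighbouring ephrin genes. The other 70 rows were sorted into guidance families. They include UNC5CL, a cytoplasmic relative that is no netrin receptor but is counted with the netrin receptors below. A count was found in any library for 71 members, all except EPHA3, and 63 passed the filter on low counts.

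Guidance cues are read by surface receptors that reshape the growth cone through small GTPases and the actin and microtubule skeletons. Semaphorins act through plexins, the secreted ones mostly with a neuropilin as the binding partner. Ephrins are themselves membrane-bound, so that EPH receptors and ephrins signal between touching cells and in both directions. SLIT proteins bind ROBO receptors, and netrins bind DCC, NEO1 and the UNC5 receptors. In the sympathetic lineage, from which neuroblastoma arises, such cues guide migrating neural crest cells and later the axons of sympathetic neurons.

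The TTC8 protein belongs to the BBSome, the coat that moves receptors through the primary cilium. Levels are given as CPM, that is counts on the usual per-million scale, relative to library totals scaled for composition (TMM). TTC8 stood at 196 and 191 CPM in shScb replicates 1 and 2 and at 29.1 and 30.6 CPM in shTTC8 replicates 1 and 2, so that 0.154 of its level remained (log2 fold change -2.70 with SE 0.07, adjusted p = 5.38e-12 by edgeR's quasi-likelihood test). Totals ran from 38284663 to 55331449 counts, the shTTC8 libraries being the shallower ones, and 1 CPM corresponded to 38.8 to 54.4 counts. All 15 listed markers of the neuroblastoma line were detected, and MYCN stood at 5661 and 5815 CPM in shScb and 3713 and 3819.6 CPM in shTTC8. Of the 15 neuroblastoma markers, all tested, 9 were called lower in shTTC8 and 3 higher (edgeR adjusted p under 0.05). Over all tested genes 16.7% were called lower and 15.2% higher, and over protein-coding ones 20.6% and 18.6%. Of 12 fibroblast and endothelial markers, 6 of 7 tested were lower in shTTC8. Their summed level was 440.3 to 458 CPM in shScb and 199 to 207 CPM in shTTC8, most of it LUM and PDGFRB, with PECAM1 and TEK at 0 counts in every library. Of 10 Schwann cell and glia markers, 2 of 6 tested were lower, with a summed level of 77.0 to 78.6 CPM in shScb and 47.6 to 47.9 CPM in shTTC8 and SOX10 and FOXD3 at 0. Of 10 epithelial and blood markers, 2 of 5 tested were lower, with a summed level of 23.5 to 24.4 CPM in shScb and 10.5 to 10.7 CPM in shTTC8 and CDH1, CD3E and HBB at 0. Semaphorins, ephrins and their receptors are also made by cells of these types, but the labels name only the SK-N-BE(2) line and no other cell type. In bulk RNA, fewer cells of a type and less RNA per cell cannot be told apart, and the part of these markers in the results below was not tested.

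Across the families, falls outnumbered rises. EdgeR called 22 of the 63 tested members lower in shTTC8 and 9 higher, at an adjusted p under 0.05. Lower calls thus made up 34.9% of the members and higher calls 14.3%. Over all 19610 tested genes 16.7% were lower and 15.2% higher, together 31.9%, and over tested protein-coding genes 20.6% were lower and 18.6% higher, together 39.2%. The higher share of the members was close to these backgrounds and the lower share above them. No test of the list was made, and it was chosen with earlier results of these data known. Among the 42 tested members with a mean of at least 5 CPM, 25 were called (59.5%), 17 of them lower and 8 higher, beside 44.7% called, 23.5% lower and 21.2% higher of protein-coding genes at that level. Both shTTC8 libraries lay below both shScb libraries in 30 tested members and above them in 17. This was so for 32.9% and 32.5% of all tested genes and for 36.0% and 35.1% of the protein-coding ones. The median log2 fold change of tested members was -0.14, against 0.00353 for all tested genes. Of 32 tested ligands 12 were lower and 6 higher, and of 30 tested receptors 10 were lower and 3 higher; this difference was not tested. Most changes were small: 3 called members fell and 1 rose by at least 2-fold, where 2.91% of all tested genes fell and 2.39% rose that far, and 3.07% and 2.49% of protein-coding ones.

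**Figure D1:**
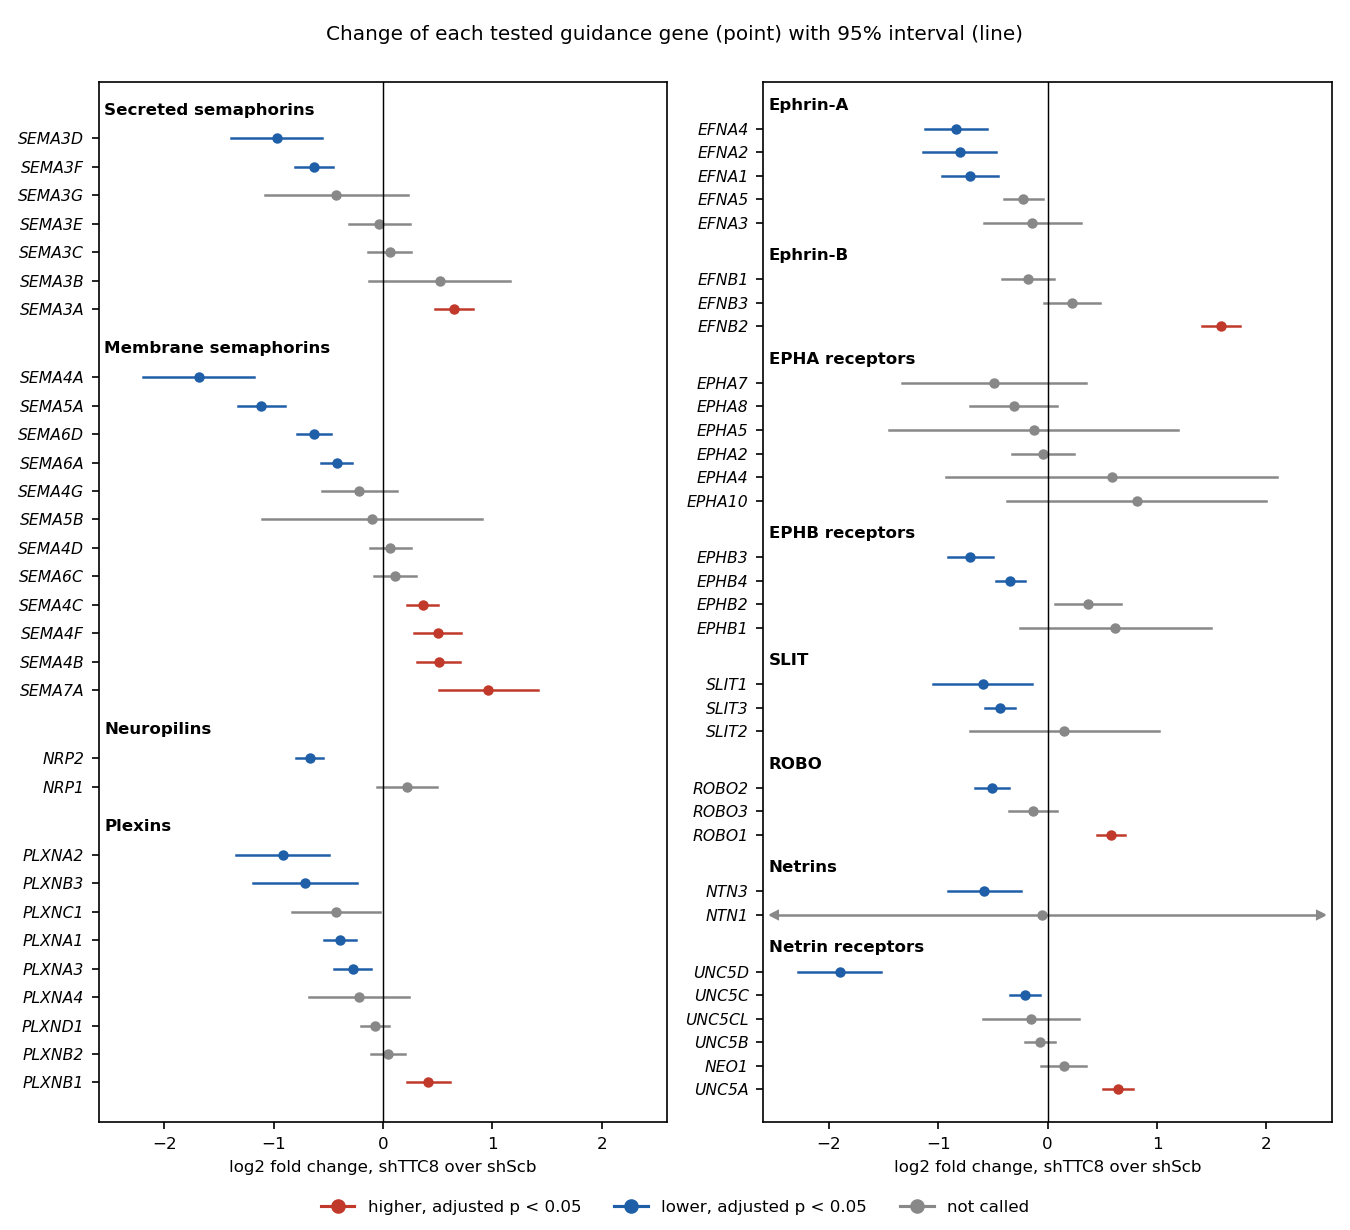
Log2 fold change of shTTC8 over shScb (horizontal axis) for the 62 tested members, UNC50 left out, grouped by family. Points are edgeR estimates, lines their 95% intervals (an arrowhead marks an interval that runs past the axis), and colour gives the call. EFNB2 is the one member beyond 1 on the higher side with a call, and UNC5D, SEMA4A and SEMA5A are those beyond -1.

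Ephrin-B2 stood out among the ligands. EFNB2 (ENSG00000125266, chromosome 13, 106489731 to 106535662, GRCh38, minus strand) encodes a transmembrane ephrin that marks arterial endothelium and guides neural crest cells. It stood at 18.7 and 18.3 CPM in the shScb libraries and at 55.8 and 55.1 CPM in the shTTC8 libraries. Both shTTC8 libraries lay far above both shScb libraries, and the spread within each group was under 1 CPM. EFNB2 rose 2.99-fold (log2 fold change 1.58 with SE 0.08, adjusted p = 5.93e-09 by edgeR), which was the smallest p of any member. Its relatives were not called with all libraries. EFNB1 stood at 23.6 and 29.8 CPM in shScb and 24.4 and 22.6 CPM in shTTC8, and the groups overlapped (log2 fold change -0.18, 95% interval -0.42 to 0.06). Without shScb replicate 1 EFNB1 was called lower (log2 fold change -0.34, edgeR adjusted p = 0.00358). EFNB3 stood at 9.61 and 10.7 CPM in shScb and 11.8 and 11.9 CPM in shTTC8 without overlap (log2 fold change 0.23, interval -0.03 to 0.48). Per length, the make-up of the family shifted. EFNB2 held 24.9% ± 2.92 of the summed RPKM (CPM per kilobase of merged exons) of the ephrin-B genes in shScb and 50.6% ± 0.668 in shTTC8 (SD, n = 2), while EFNB1 went from 53.9% ± 3.49 to 32.5% ± 1.13.

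The promoters of this most raised member and of SEMA6D are printed as 300 bases from 250 before to 50 after the RefSeq start (GRCh38.p14). SEMA6D is not typical of the lowered members, being the only one whose window held the motif marked here. They are chr13:106535613-106535912 on the minus strand and chr15:47183839-47184138 on the plus strand, 5′ to 3′. Capitals mark CACGTG, the E-box that MYC-family proteins bind, which is shown because MYCN itself fell in these libraries (log2 fold change -0.61, edgeR adjusted p = 3.49e-06). A link between MYCN and any member was not tested.
EFNB2: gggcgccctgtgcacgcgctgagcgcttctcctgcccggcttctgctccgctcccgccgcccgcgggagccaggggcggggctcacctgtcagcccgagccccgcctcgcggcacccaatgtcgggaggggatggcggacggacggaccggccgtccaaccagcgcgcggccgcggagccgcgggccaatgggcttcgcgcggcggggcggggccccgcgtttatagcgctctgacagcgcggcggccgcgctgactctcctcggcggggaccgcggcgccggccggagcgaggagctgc
SEMA6D: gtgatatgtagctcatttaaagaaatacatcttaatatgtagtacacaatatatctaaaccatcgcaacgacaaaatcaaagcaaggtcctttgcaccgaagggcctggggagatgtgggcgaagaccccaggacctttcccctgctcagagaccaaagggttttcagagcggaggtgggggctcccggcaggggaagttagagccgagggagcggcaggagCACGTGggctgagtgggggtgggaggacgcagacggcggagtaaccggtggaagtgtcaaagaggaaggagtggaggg
The RefSeq table held a window for 62 of the 72 members, with none used here for EFNB3, EPHA10, NRP1, NTN1, NTN3, SEMA3A, SEMA6A, SEMA6B, UNC5B and UNC5D. On either strand CACGTG was found in 4 of the 62 (6.45%) and in 7.43% of all 27305 windows. Besides SEMA6D these were EPHA8, SEMA3E and SEMA4D, which were not called, so that 1 of the 19 windows of lowered members and none of the 8 of raised members held it. The EGR motif GCGTGGGCG was in 2 windows, those of NEO1 and ROBO3 (3.23%, against 0.784% of all windows), and the GLI motif TGGGTGGTC in none (0.249% of all windows). No member window held more than 1 of these motifs. The EFNB2 window, at 78.7% G and C, held none of the 3 motifs, and median G and C content was 65.2% for members and 58.3% for all windows.

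The ephrin-A ligands, which are tied to the membrane by a lipid anchor, lay lower. Of 5 tested, 3 were lower and none higher (median log2 fold change -0.71). EFNA4 stood at 11.3 and 11.6 CPM in shScb and 6.51 and 6.28 CPM in shTTC8, and fell to 0.559 of its level (log2 fold change -0.84 with SE 0.13, adjusted p = 1.88e-04 by edgeR). EFNA1, the ligand best known for engaging EPHA2, fell from 13.3 and 13.7 to 8.29 and 8.19 CPM (log2 fold change -0.71 with SE 0.12, adjusted p = 3.20e-04 by edgeR). For EFNA2 the libraries gave 7.74 and 8.32 CPM in shScb and 4.71 and 4.47 CPM in shTTC8 (log2 fold change -0.81 with SE 0.16, adjusted p = 0.00113 by edgeR). In all of these genes the shTTC8 libraries lay below the shScb libraries. EFNA5, a repellent of retinal and cortical axons and the ephrin-A with the highest CPM, stood at 37.8 and 34.9 CPM in shScb and 30.6 and 31.7 CPM in shTTC8 without overlap, but missed the threshold (log2 fold change -0.22 with SE 0.08, adjusted p = 0.0577 by edgeR; adjusted p = 0.0119 without shScb replicate 2). EFNA3 was not called, at 3.42 and 3.26 CPM in shScb and 3.14 and 2.92 CPM in shTTC8. It shares 44.7% of its exonic bases with the readthrough row EFNA4-EFNA3, which had 3.88% of its counts. EFNA4 shares 15.0% of its own with the same row. How reads at shared bases were counted is not given in the sources used here. Summed over the family, ephrin-A RPKM were 30.7 and 31.2 in shScb and 20.4 and 20.0 in shTTC8.

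Of the EPH receptors, those of the B class fell where they were called. EPHB4 (ENSG00000196411, chromosome 7, 100802565 to 100827521, GRCh38), the main partner of ephrin-B2 and the EPH gene with the highest RPKM, stood at 133 and 139 CPM in shScb and 110.5 and 105 CPM in shTTC8 (log2 fold change -0.34 with SE 0.06, adjusted p = 6.53e-04 by edgeR). It moved opposite to EFNB2, and its groups did not overlap. It shares 69 exonic bases on the opposite strand with SLC12A9, whose counts were 39.2% of its own, and reads of these genes cannot be told apart there because the kit does not mark strand. EPHB3 fell from 25.4 and 26.3 to 16.7 and 15.0 CPM (log2 fold change -0.71 with SE 0.10, adjusted p = 5.80e-05 by edgeR). EPHB2 stood at 7.14 and 7.47 CPM in shScb and 10.3 and 8.62 CPM in shTTC8 and missed the threshold on the higher side (log2 fold change 0.37 with SE 0.14, adjusted p = 0.0610 by edgeR; adjusted p = 0.0382 with library size alone). EPHB1 and EPHB6, of which EPHB6 lacks an active kinase, had at most 37 counts in a library. No EPHA receptor was called among 6 tested (edgeR; 0 at an unadjusted p under 0.05, and 0 by DESeq2 or limma-voom), though EPHA10 was called higher without shScb replicate 2 (log2 fold change 2.08, adjusted p = 0.0162). EPHA2 was the abundant one, with 84.7% ± 0.589 of the family's RPKM in shScb, and stood at 25.9 and 26.5 CPM in shScb and 29.1 and 21.7 CPM in shTTC8. The shTTC8 replicates lay on either side of the shScb ones (interval -0.33 to 0.24). EPHA8 stood at 4.77 and 4.62 CPM in shScb and 4.07 and 3.50 CPM in shTTC8 (interval -0.71 to 0.09). EPHA4, EPHA5, EPHA7 and EPHA10 had at most 61 counts in a library, EPHA1 and EPHA6 had at most 9, and EPHA3 had none.

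**Figure D2:**
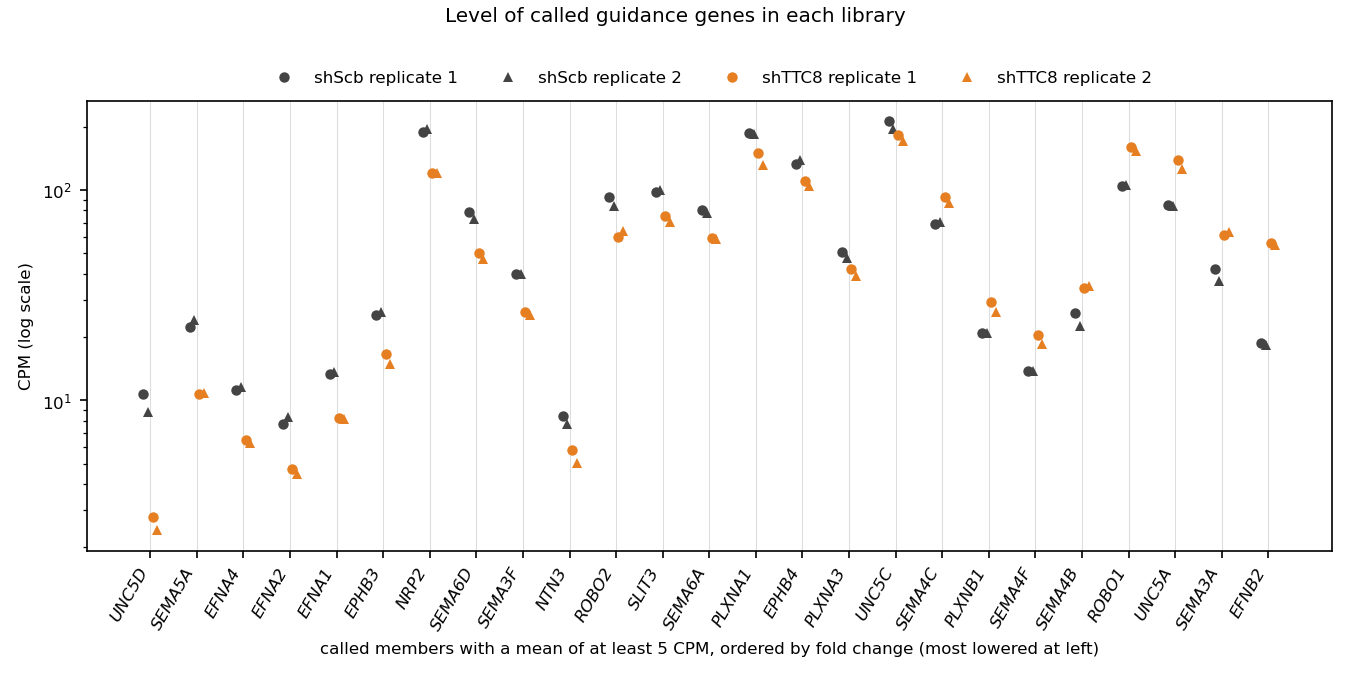
CPM on a log axis in each of the 4 libraries for the 25 called members with a mean of at least 5 CPM, ordered from the most lowered to the most raised. Circles are replicate 1 and triangles replicate 2, dark for shScb and orange for shTTC8. In each gene both orange points lie on 1 side of both dark points, from UNC5D at the left to EFNB2 at the right.

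By RPKM, the secreted semaphorins (class 3) exchanged their leading member. By CPM, SEMA3F and SEMA3A were nearly level in shScb, with a different leader in each library, and SEMA3A led in shTTC8. SEMA3F, which repels axons through NRP2, stood at 40.0 and 40.0 CPM in shScb and 26.2 and 25.4 CPM in shTTC8 and fell to 0.646 of its level (log2 fold change -0.63 with SE 0.08, adjusted p = 3.70e-05 by edgeR). SEMA3A, the collapsin that acts through NRP1, stood at 42.3 and 37.0 CPM in shScb and 61.5 and 62.9 CPM in shTTC8 and rose 1.57-fold (log2 fold change 0.65 with SE 0.08, adjusted p = 2.22e-05 by edgeR). Neither gene's groups overlapped. Of the family's summed RPKM, SEMA3F held 44.0% ± 1.23 in shScb and 29.6% ± 0.659 in shTTC8, and SEMA3A 22.4% ± 1.51 and 36.7% ± 0.591, while the sum stayed between 18.1 and 19.2 in all libraries. SEMA3D fell from 6.27 and 5.17 to 3.17 and 2.66 CPM (log2 fold change -0.97 with SE 0.19, adjusted p = 0.00144 by edgeR). SEMA3C, a cue of neural crest and heart development, was not called at 22.8 and 21.1 CPM in shScb and 23.4 and 22.3 CPM in shTTC8 (interval -0.14 to 0.26), nor was SEMA3E, which binds PLXND1 directly, at 11.9 and 11.6 CPM in shScb and 10.2 and 12.8 CPM in shTTC8 (interval -0.31 to 0.24). SEMA3B and SEMA3G had 59 to 185 counts a library and were not called with all libraries. SEMA3G was called lower without shScb replicate 1 (log2 fold change -0.82 in place of -0.43, edgeR adjusted p = 0.0254).

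Membrane semaphorins fell and rose in equal number, with 4 lower and 4 higher of 12 tested. The lower ones were of classes 5 and 6 and SEMA4A. SEMA5A (ENSG00000112902, chromosome 5, 9035026 to 9546075, GRCh38), a thrombospondin-repeat semaphorin that can attract or repel, stood at 22.4 and 24.1 CPM in shScb and 10.7 and 10.8 CPM in shTTC8, and 0.462 of its level remained (log2 fold change -1.11 with SE 0.10, adjusted p = 1.21e-06 by edgeR). SEMA6D, a ligand of PLXNA1, fell from 78.5 and 72.7 to 50.4 and 47.1 CPM (log2 fold change -0.63 with SE 0.07, adjusted p = 1.11e-05 by edgeR). SEMA6A, which binds PLXNA2 and PLXNA4, stood at 80.3 and 78.2 CPM in shScb and 59.3 and 58.7 CPM in shTTC8 (log2 fold change -0.43 with SE 0.07, adjusted p = 1.63e-04 by edgeR). All 4 libraries kept the groups apart in these genes. SEMA4A, best known from immune cells and retina, had the deepest fall of the semaphorins, from 241 and 258 to 46 and 73 counts (4.77 and 4.75 to 1.18 and 1.76 CPM; log2 fold change -1.69 with SE 0.24, adjusted p = 7.67e-05 by edgeR).

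The raised membrane semaphorins were SEMA4B, SEMA4C, SEMA4F and the lipid-anchored SEMA7A. SEMA4C, a ligand of PLXNB2 and the semaphorin with the highest RPKM in both groups, stood at 69.1 and 70.7 CPM in shScb and 92.5 and 87.1 CPM in shTTC8 (log2 fold change 0.36 with SE 0.06, adjusted p = 5.80e-04 by edgeR). SEMA4B rose from 26.01 and 22.5 to 34.1 and 35.0 CPM (log2 fold change 0.51 with SE 0.09, adjusted p = 6.54e-04 by edgeR). SEMA4F stood at 13.8 and 13.9 CPM in shScb and 20.5 and 18.6 CPM in shTTC8 (log2 fold change 0.50 with SE 0.10, adjusted p = 0.00164 by edgeR), and none of these genes had overlapping groups. SEMA7A, which promotes axon growth and binds PLXNC1, rose 1.95-fold at a low level, from 2.41 and 2.06 to 4.25 and 4.47 CPM (log2 fold change 0.96 with SE 0.21, adjusted p = 0.00271 by edgeR). Not called were SEMA4D, the ligand of PLXNB1 (33.8 and 30.6 CPM in shScb and 34.7 and 32.8 CPM in shTTC8; interval -0.12 to 0.25), SEMA6C (20.3 and 20.1 CPM in shScb and 22.0 and 21.5 CPM in shTTC8), SEMA4G and SEMA5B. SEMA4G is uncertain, since 22.3% of its exonic bases are shared with MRPL43, which had 731% of its counts, and it was called lower without shScb replicate 2 (log2 fold change -0.43 in place of -0.22, edgeR adjusted p = 0.0407). SEMA6B, at 5 to 19 counts a library, did not pass the filter.

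Of the 2 neuropilins, which hold secreted semaphorins for the plexins, NRP2 fell and NRP1 was not called. NRP2 (ENSG00000118257, chromosome 2, 205681990 to 205798133, GRCh38) was counted 9541 and 10636 times under shScb and 4676 and 5002 times under shTTC8, that is 189 and 196 CPM in shScb and 120.4 and 121 CPM in shTTC8. It dropped well below the spread of either group, with 0.627 of its level left (log2 fold change -0.67 with SE 0.06, adjusted p = 8.59e-07 by edgeR). NRP1 was far less abundant, at 13.8 and 12.8 CPM in shScb and 17.6 and 13.5 CPM in shTTC8, and its groups overlapped (interval -0.05 to 0.49). SEMA3F and its partner NRP2 thus both fell, and SEMA3A rose. Without shTTC8 replicate 2 NRP1 was called higher (log2 fold change 0.40, edgeR adjusted p = 0.0404).

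All 9 plexins, the signalling receptors of semaphorins, were tested, with 4 lower and 1 higher (median log2 fold change -0.28). PLXNA1, the most abundant A-class plexin, stood at 187 and 184 CPM in shScb and 151 and 132 CPM in shTTC8 (log2 fold change -0.39 with SE 0.07, adjusted p = 4.51e-04 by edgeR). PLXNA3, a SEMA3F receptor with NRP2, fell from 50.9 and 47.6 to 42.2 and 39.2 CPM (log2 fold change -0.28 with SE 0.08, adjusted p = 0.0146 by edgeR), a call lost without shTTC8 replicate 2 (adjusted p = 0.186). PLXNA2 fell from 6.83 and 5.04 to 2.96 and 3.31 CPM (log2 fold change -0.92 with SE 0.20, adjusted p = 0.00252 by edgeR). The A class was thus lower in 3 of its 4 genes, and PLXNA4 was not called at 3.48 and 3.75 CPM in shScb and 3.53 and 2.68 CPM in shTTC8 (interval -0.68 to 0.24). The B class went both ways. PLXNB1, the SEMA4D receptor, rose from 21.0 and 20.9 to 29.4 and 26.3 CPM (log2 fold change 0.41 with SE 0.09, adjusted p = 0.00317 by edgeR; adjusted p = 0.0676 without shTTC8 replicate 1). PLXNB3 stood at 4.29 and 4.78 CPM in shScb and 3.32 and 2.22 CPM in shTTC8 (log2 fold change -0.71 with SE 0.22, adjusted p = 0.0238 by edgeR), but its log2 fold change ranged from -1.03 without shTTC8 replicate 1 to -0.45 without shTTC8 replicate 2 (adjusted p = 0.233). Its call was also lost without shScb replicate 2 (adjusted p = 0.0566), without the low-count filter (adjusted p = 0.0530) and by DESeq2 (adjusted p = 0.0695), and the gene shares 20.4% of its exonic bases with SRPK3. The plexin with the highest RPKM, PLXNB2, was not called at 164 and 174 CPM in shScb and 187 and 162 CPM in shTTC8 (interval -0.11 to 0.20), nor was the SEMA3E receptor PLXND1 at 144 and 151 CPM in shScb and 143 and 137 CPM in shTTC8 (interval -0.21 to 0.05). PLXNC1 stood at 4.27 and 4.73 CPM in shScb and 3.32 and 3.36 CPM in shTTC8 and was not called; it shares exonic positions with CEP83, which had 425% of its counts.

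Among the SLIT repellents, SLIT3 carried nearly all of the RPKM (93.2% ± 0.781 in shScb). It fell from 97.7 and 100.1 to 75.7 and 70.6 CPM, with no overlap (log2 fold change -0.44 with SE 0.06, adjusted p = 1.18e-04 by edgeR). SLIT1 stood at 3.60 and 4.40 CPM in shScb and 2.83 and 2.46 CPM in shTTC8 and passed narrowly (edgeR adjusted p = 0.0453). Its call was lost in 9 of 13 other settings, among them DESeq2 (adjusted p = 0.146) and without shScb replicate 2 (adjusted p = 0.238), shTTC8 replicate 1 (adjusted p = 0.0753) or shTTC8 replicate 2 (adjusted p = 0.214). SLIT2, the SLIT most studied in axon crossing, had 25 to 38 counts a library. The ROBO receptors moved apart. ROBO1 (ENSG00000169855, chromosome 3, 78597240 to 79767815, GRCh38) stood at 104 and 106 CPM in shScb and 160.0 and 154 CPM in shTTC8 and rose 1.49-fold (log2 fold change 0.58 with SE 0.06, adjusted p = 3.79e-06 by edgeR). ROBO2 (ENSG00000185008, chromosome 3, 75906695 to 77649964, GRCh38) stood at 92.7 and 83.7 CPM in shScb and 59.8 and 64.2 CPM in shTTC8 and fell to 0.703 of its level (log2 fold change -0.51 with SE 0.07, adjusted p = 7.66e-05 by edgeR). In both genes the groups were apart, in opposite directions. ROBO1 held 55.9% ± 1.19 of ROBO RPKM in shScb and 71.2% ± 1.40 in shTTC8, and ROBO2 30.6% ± 1.87 and 18.3% ± 1.05 (SD, n = 2). ROBO3, a divergent member that does not bind SLIT strongly, was not called at 15.9 and 16.8 CPM in shScb and 14.6 and 15.1 CPM in shTTC8 (interval -0.35 to 0.08), and ROBO4, the endothelial member, had at most 5 counts.

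The netrin system was rich in receptors and poor in ligand. NTN3 was the one netrin with more than 24 counts in a library and fell from 8.47 and 7.73 to 5.82 and 5.03 CPM (log2 fold change -0.58 with SE 0.16, adjusted p = 0.0104 by edgeR), a call lost without shTTC8 replicate 2 (adjusted p = 0.0984). NTN1, the classical attractant, had 15 and 17 counts in shScb and 0 and 24 in shTTC8, and NTN4 had 2 counts in all. NTN1 was not called with all libraries, but was called lower without shTTC8 replicate 2 (edgeR adjusted p = 0.0203), where the library at 0 is the only one left in its group. DCC, the attractive netrin receptor, had 0 and 2 counts in shScb and 7 and 12 in shTTC8 and did not pass the filter. NEO1, its relative, was not called at 27.6 and 23.2 CPM in shScb and 28.5 and 27.6 CPM in shTTC8 (interval -0.06 to 0.35), but was called higher without shScb replicate 1 (log2 fold change 0.27, edgeR adjusted p = 0.0302). The UNC5 receptors, which mediate repulsion and can trigger death when no netrin is bound, included UNC5B, the member with the highest RPKM in shScb (28.8; UNC5A 19.5, UNC5C 19.1).

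UNC5A (ENSG00000113763, chromosome 5, 176810477 to 176880898, GRCh38) stood at 85.4 and 84.2 CPM in shScb and 138 and 126 CPM in shTTC8. It rose 1.56-fold without overlap (log2 fold change 0.64 with SE 0.06, adjusted p = 3.30e-06 by edgeR). By RPKM it went from rank 4 to rank 1 among the members. By CPM it did not lead, with a mean of 132 CPM in shTTC8 beside 188 for UNC5B and 177 for UNC5C. UNC5B was not called at 192 and 203 CPM in shScb and 197 and 178 CPM in shTTC8, with overlapping groups (interval -0.21 to 0.07). UNC5C stood at 213 and 195 CPM in shScb and 182 and 172 CPM in shTTC8 (log2 fold change -0.20 with SE 0.06, adjusted p = 0.0244 by edgeR). The UNC5C call was lost with scaling by library size alone (adjusted p = 0.0690) and without shScb replicate 1 (adjusted p = 0.0695), shTTC8 replicate 1 (adjusted p = 0.0702) or shTTC8 replicate 2 (adjusted p = 0.269). UNC5D (ENSG00000156687, chromosome 8, 35235457 to 35796550, GRCh38), which binds FLRT proteins and guides migrating cortical neurons, had the deepest fall of all members. Its counts were 544 and 477 under shScb and 109 and 100 under shTTC8, that is 10.8 and 8.78 CPM in shScb and 2.81 and 2.42 CPM in shTTC8, and 0.267 of its level remained (log2 fold change -1.90 with SE 0.18, adjusted p = 1.47e-06 by edgeR). FLRT1, a gene of the FLRT family from the list of other cues, fell from 15.7 and 16.9 to 7.54 and 9.13 CPM (log2 fold change -0.96 with SE 0.12, adjusted p = 3.43e-05 by edgeR). A link between FLRT1 and UNC5D was not tested. In the family's RPKM, UNC5A took 26.8% ± 0.0280 in shScb and 38.3% ± 0.211 in shTTC8. UNC5CL, a cytoplasmic relative that is no netrin receptor, was not called and shares exonic positions with OARD1, which had 852% of its counts. UNC50 was not called either, at 25.2 and 22.8 CPM in shScb and 26.1 and 27.4 CPM in shTTC8 (interval -0.04 to 0.35).

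**Figure D3:**
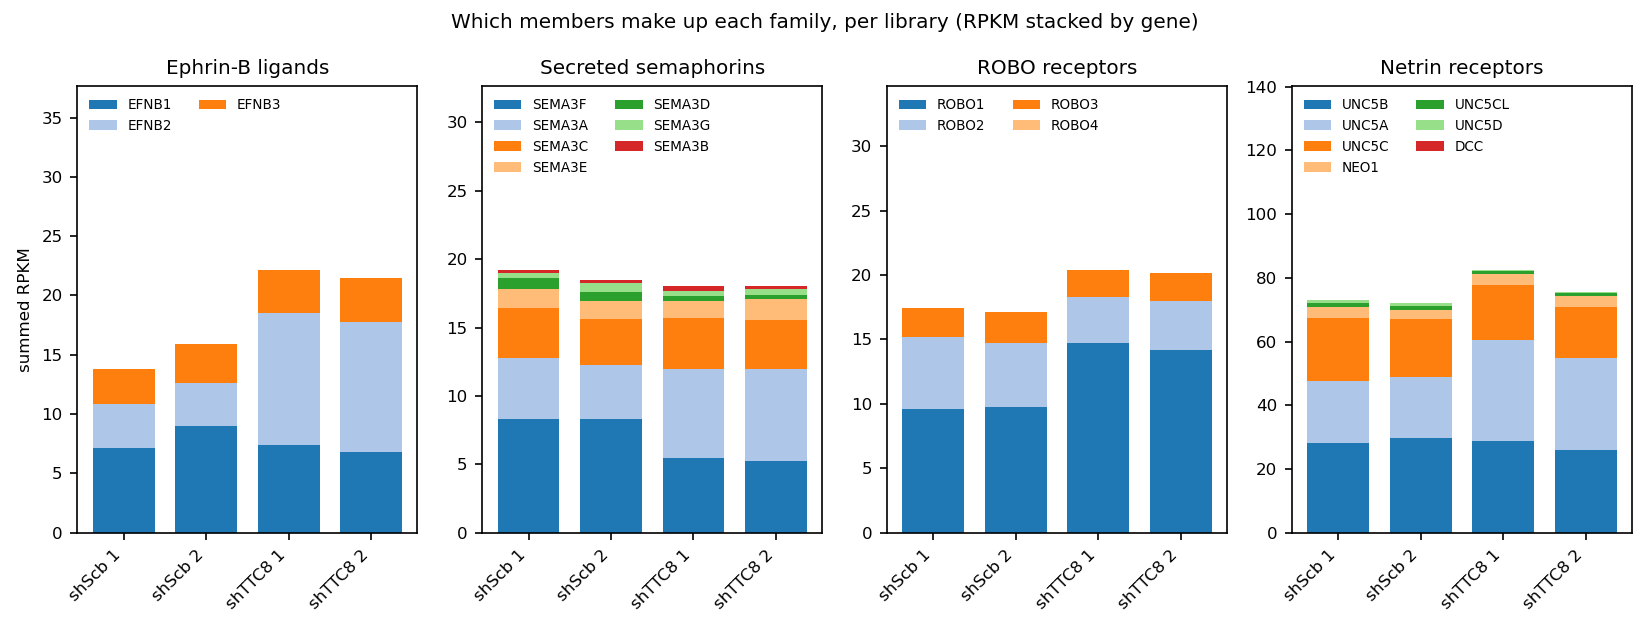
RPKM stacked by gene in each of the 4 libraries for ephrin-B ligands, secreted semaphorins, ROBO receptors and netrin receptors; the vertical axes differ between panels and start at 0. EFNB2, SEMA3A, ROBO1 and UNC5A take a larger part of their stack in both shTTC8 libraries than in either shScb library.

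Neighbouring members did not always move together. On chromosome 7 SEMA3A and SEMA3D, whose starts lie 694 kb apart, were raised and lowered, and SEMA3C and SEMA3E of the same region were not called. ROBO1 and ROBO2 start 3861 kb apart on chromosome 3, with opposite changes. On chromosome 1 EFNA4 and EFNA1, 63.7 kb apart, both fell, but EFNA3 between them was not called. On chromosome 3 SEMA3F fell and SEMA3B, 113 kb away, was not called. Other pairs shared a direction: PLXNA3 and PLXNB3, 694 kb apart on the X chromosome, both fell, as did EFNA1 and SEMA4A, 1020 kb apart. Around the 4 members that changed at least 2-fold, 63 tested protein-coding genes start within 1 Mb, 58 of them near SEMA4A. Of the 63, 30.2% were higher and 6.35% lower, beside 18.6% and 20.6% of tested protein-coding genes. LMNA, which encodes nuclear lamins, starts 64.8 kb from SEMA4A and was lower (log2 fold change -0.75), while SLC25A44 at 46.6 kb was higher (0.63). Of the 4 tested neighbours of SEMA5A, CMBL at 762 kb was lower (log2 fold change -0.69) and the others were not called. The only tested neighbour of EFNB2, ARGLU1, was not called (log2 fold change -0.10), and UNC5D had no tested neighbour.

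Downstream of the receptors, 49 of 52 listed cytoplasmic effectors were tested, of which 14 were higher and 15 lower (median log2 fold change -0.06). The collapsin response mediators, which carry semaphorin signals to microtubules, included the most significant rise: DPYSL5 went from 239 and 250.2 to 497 and 469 CPM (log2 fold change 0.98 with SE 0.06, adjusted p = 4.00e-08 by edgeR). DPYSL3, DPYSL4 and CRMP1 rose too (log2 fold changes 0.32, 0.38 and 0.31), and DPYSL2 was lower (-0.18, edgeR adjusted p = 0.0363). DPYSL2 shares 71 exonic bases on the opposite strand with PNMA2, which had 35.2% of its counts. MICAL2, of the actin-oxidising enzymes that act below plexins, fell from 8.59 and 7.14 to 2.96 and 3.31 CPM (log2 fold change -1.32 with SE 0.18, adjusted p = 4.76e-05 by edgeR). CFL1, the actin-severing cofilin, rose 1.37-fold (log2 fold change 0.46 with SE 0.06, adjusted p = 4.95e-05 by edgeR). RAC1 was lower (log2 fold change -0.35), and RHOA and CDC42 were not called (-0.09 and -0.13).

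Of 24 further guidance modulators and cues, 22 were tested, with 5 higher and 7 lower (median 0.03). NTNG2, a lipid-anchored netrin relative, rose from 11.6 and 10.2 to 23.6 and 23.3 CPM (log2 fold change 1.10 with SE 0.10, adjusted p = 1.79e-06 by edgeR). PTPRO, a phosphatase that acts on EPH receptors, rose from 24.0 and 24.5 to 43.3 and 39.4 CPM (log2 fold change 0.77 with SE 0.09, adjusted p = 8.74e-06 by edgeR). Besides FLRT1, the synaptic adhesion gene LRRTM1, the pseudokinase gene PTK7 and LRIG3 were lower, at log2 fold changes of -0.83, -0.56 and -0.69. Called shares of these lists, 59.2% and 54.5%, stood beside 39.2% of tested protein-coding genes and 44.7% of those with a mean of at least 5 CPM. The lists were chosen with earlier results of these data known and were not matched for level. The difference was not tested.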

How the data were processed

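RNA from 4 samples of SK-N-BE(2) was sequenced. Per the labels' protocols, total RNA was taken with TRIzol and made into libraries by Illumina's TruSeq RNA kit, a protocol without strand marks. Per the submitters' processing notes, the aligner was HISAT2 2.2.0 and the build hg38; for the read counter and annotation release the sources used here name nothing. The authors deposited whole-number counts per Ensembl gene, unnormalized, 1 column per sample. Symbols came from a gene name table (56105 IDs) and GENCODE 29 (486), and positions and exon lengths from GENCODE 29 (GRCh38).

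Counts were fitted over all genes in R 4.3.3 with edgeR 4.0.16 (filterByExpr, TMM, robust quasi-likelihood F test, two-sided, Benjamini-Hochberg over 19610 genes, threshold 0.05). CPM use TMM-scaled totals, RPKM divide them by merged exon length, and each SE is the size of the log2 change divided by √F. Fits were tested on simulated data. Replicates differed by more than sampling noise (chi-square per degree of freedom 12.5 in shScb, 6.88 in shTTC8).

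Members and lists were chosen with earlier results of these data known. Named with full values were called members averaging 5 CPM or more whose groups did not overlap, the most abundant member of each family, and up to 6 genes of each pathway list by smallest p. Some genes that this rule names are not reported here. Shared exonic positions are stated where the other gene had at least 10% of the counts, and for EFNA3, EFNA4 and UNC5C. EPHA1 and EPHB1 (ZYX and KY) and PLXNA3 (LAGE3, 11 bases) also have them. Neither the hairpin's sequence nor how many were used is known here, so effects of the hairpin itself and of lower TTC8 cannot be told apart. Alternatives were RLE or no composition scaling, other low-count filters, DESeq2 1.42.0, limma-voom (limma 3.58.1), a non-robust fit, a replicate block, thinning to equal depth, each library left out and stricter thresholds.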

Additional observations from a re-analysis of the deposited data

How the results depend on the processing

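Of the 31 called members, 25 kept direction and call in all 13 other scalings, filters, tools, block, thinning and left-out libraries; 6 lost the call in at least 1 and none changed sign. Leaving out 1 library gave 8 to 11 raised and 18 to 23 lowered members, 1880 to 3395 raised and 2383 to 3555 lowered genes in all (1880 raised without shTTC8 replicate 1), 12 to 19 raised and 13 to 23 lowered pathway genes, and 1 to 3 raised and 17 to 20 lowered markers. With at least 2-fold required, 1 member was raised and 3 lowered, against 468 and 570 genes in all, 2 and 1 pathway genes and 1 and 8 markers. An adjusted p under 0.01 left 1917 raised genes. With the replicate number as a block, 31 members were called, all shared with the fit without it; the labels do not say that numbers pair the libraries, and same-numbered deviations correlated at 0.03 across genes. DESeq2 called 29 members, all shared. Dropping UNC50 and EFNA4-EFNA3, chosen after seeing the data, changed neither count. Without length scaling the shares in shScb were 33.6% for EFNB2, 32.2% for SEMA3A, 50.1% for ROBO1 and 16.2% for UNC5A. In shTTC8 they were 61.1%, 48.2%, 67.1% and 24.9%, in the same order. Within 0.5 Mb, 10 neighbours were raised and 2 lowered. Of members that were not called, 9 were called in some setting and 12 changed sign, with these log2 fold changes over the left-out libraries: EPHA4 (-0.0624 to 1.497), EPHA2 (-0.27 to 0.16), EPHA5 (-0.65 to 0.24), NTN1 (-6.88 to 0.92), UNC5B (-0.15 to 0.00196), PLXNB2 (-0.0650 to 0.15), SEMA4G (-0.43 to 0.0269), SEMA4D (-0.00578 to 0.14), SEMA5B (-0.36 to 0.12), SEMA3G (-0.82 to 0.11), SEMA3E (-0.20 to 0.12) and SLIT2 (0.0173 to 0.30). Outside these, NTN1 was at 0.31 with thinning, SEMA3E was at 0.00822 with library size alone, SLIT2 was at -0.0148 with thinning. The cause of these differences was not tested. Members under 1 CPM had few counts in every library.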

Other observations

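Besides the members, 11 rows carry a member's symbol with an antisense suffix and were left out by the rule. UNC5C-AS1 was the abundant one, at 17.0 and 17.6 CPM in shScb and 15.6 and 15.1 CPM in shTTC8, and was not called (log2 fold change -0.17, edgeR adjusted p = 0.223). It shares 78 exonic bases with UNC5C. The next, SEMA6A-AS1, had 46 and 46 counts in shScb and 30 and 21 in shTTC8, and SEMA3F-AS1 had 23 and 22 in shScb and 24 and 34 in shTTC8. No antisense row was called among 4 tested (edgeR; 0 at an unadjusted p under 0.05, and 0 by DESeq2 or limma-voom). The remaining 8 rows had at most 16 counts in a library.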
